A study of Mus musculus with 6 samples.

Results

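Marker genes of macrophages and antigen-presenting cells, 10 in all, were followed in whole testes of mice with and without Alkbh1. They are Cd68, Csf1r, C1qa, C1qb, C1qc, Cd74, H2-Ab1, H2-Aa, Mrc1 and Laptm5. Every probe set that the platform annotation assigns to exactly 1 of these 10 symbols was taken, which gave 23 of the 45037 probe sets that are not array controls. Each probe set reads 1 stretch of a transcript through several short probes, and 5 of the 10 genes have more than 1. The testes came from Alkbh1 knockout mice (Alkbh1-/-, KO, n = 3) and wild-type mice (WT, n = 3), all 12 weeks old. The background is C57/BL6 in the source labels and C53/BL6 in the genotype labels. Each testis gave 1 Affymetrix array of normalized log2 expression values. How the knockout allele was made and whether the WT mice were littermates is not given in the labels.

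Macrophages are the main immune cells of the mouse testis. They lie in the interstitium beside the Leydig cells and around the seminiferous tubules, and the interstitial and peritubular populations are told apart partly by CSF1R and MHC class II. CSF1R is the receptor for the growth factors CSF1 and IL-34, on which most tissue macrophages depend. C1qa, C1qb and C1qc encode the chains of C1q, the recognition protein of the classical complement pathway, which tissue macrophages make themselves. H2-Aa and H2-Ab1 encode the alpha and beta chains of the class II molecule I-A, which shows peptides to helper T cells, and Cd74 encodes the invariant chain that escorts class II molecules to endosomes. Cd68 is a glycoprotein of macrophage endosomes and lysosomes, Mrc1 is the mannose receptor, and Laptm5 is a lysosomal membrane protein of blood cells.

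Promoter stretches of 4 members are shown because they carry short motifs known from macrophage and class II genes. The sequences are RefSeq's, on build GRCm38.p6, written 5′ to 3′ on the strand of the gene, with motif matches in capitals. The promoter table held 6 of the 10 genes, and the 250 bases before each start were searched on both strands. The first motif was GGAAGT, the core bound by PU.1 and other ETS factors. The second was CTGATTGG, the Y box of class II promoters, and the third was TGACGTCA, the cyclic AMP response element. None of these motifs overlaps another.
C1qb, chr4:136886201-136886300, minus strand: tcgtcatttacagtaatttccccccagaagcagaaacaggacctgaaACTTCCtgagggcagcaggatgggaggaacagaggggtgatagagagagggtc
C1qc, chr4:136893057-136893156, minus strand: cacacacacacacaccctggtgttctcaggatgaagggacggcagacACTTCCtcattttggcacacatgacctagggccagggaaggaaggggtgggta
Mrc1, chr2:14229164-14229263, plus strand: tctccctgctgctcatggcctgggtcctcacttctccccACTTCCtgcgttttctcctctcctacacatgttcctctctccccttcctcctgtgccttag
H2-Aa, chr17:34287844-34287943, minus strand: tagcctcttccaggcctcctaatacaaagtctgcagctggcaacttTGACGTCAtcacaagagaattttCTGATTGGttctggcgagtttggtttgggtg
The GGAAGT core was found in 4 of the 6 promoters, those of C1qb, C1qc, Mrc1 and Laptm5, and in 19.7% of all 32851 promoter windows of that length. In H2-Aa the Y box lies 51 to 44 bases before the start and the cyclic AMP response element 74 to 67 bases before it. All windows together hold them at 3.83% and 1.55%. The motifs were chosen with these sequences in view, and a match describes letters, not a bound site.

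The targeted gene was lower in every KO testis than in every WT testis at both of its tested probe sets, and 1 of them passed. Alkbh1 probe set 1434660_at read 8.43, 8.65 and 8.72 log2 in WT replicates 1, 2 and 3, and 5.76, 5.30 and 5.20 in KO replicates 1, 2 and 3 (limma adjusted p = 0.000582). The second, dimmer probe set read 6.97, 6.82 and 7.16 in WT and 6.03, 5.78 and 6.10 in KO, or −1.02 ± 0.12 between the groups, and did not pass (adjusted p = 0.0697). All 10 germ cell, 10 Sertoli and 5 Leydig genes of the lists that are on the array lay above the level filter described in the methods. That filter kept 60% of all probe sets. The germ cell genes averaged from 12.45 to 12.55 log2 per array, against array medians of 6.62 to 6.65. WT replicates 1 and 2 stood apart from the other arrays. Their mean log2 value over 24 probe sets of spiked-in control RNA was 6.69 and 9.41, against 7.59 to 8.10 on the other 4 arrays. The correlation between these 2 arrays was the lowest of all pairs (Pearson r = 0.989 across 27022 probe sets, which are not independent replicates). The results below are therefore given with and without them where it matters.

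Of the 23 member probe sets, 21 passed the level filter and were tested, with at least 1 for every gene. The 2 left out, H2-Aa 1443783_x_at and Laptm5 1459841_x_at, read from 3.14 to 3.24 and from 4.16 to 4.35 log2 over the 6 arrays.

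None of the 10 genes passed the test between KO and WT testes. Of the 21 tested probe sets, 0 passed limma's test (Benjamini-Hochberg adjusted p from 0.984 to 0.999) and 0 had an unadjusted p under 0.05. Over all 27022 probe sets tested, 0.0407% were called and 5.11% had an unadjusted p under 0.05. The members leaned neither way, with 11 higher and 10 lower in KO and a median difference of 0.0035 log2, against a median of 0.013 and 56.4% higher over all probe sets. A single member probe set had no overlap between the groups (4.76%), against 11% of all probe sets. Leaving out WT replicates 1 and 2 also gave 0 called members, with a median difference of −0.020.

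The intervals show how large a change could have been missed. For 19 of the 21 probe sets the 95% confidence interval of the difference lay within 0.5 log2 (1.41-fold) of 0 in both directions, and the other 2 were probe sets of Laptm5. In a whole testis, fewer macrophages and less RNA per macrophage cannot be told apart. The replicates of the members were also somewhat more spread than those of other genes. The SD within groups had a median of 0.130 log2 over the members and 0.10 over all tested probe sets, and 18 of the 21 members lay above the latter. These medians were not matched for signal level.

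**Figure D1:**
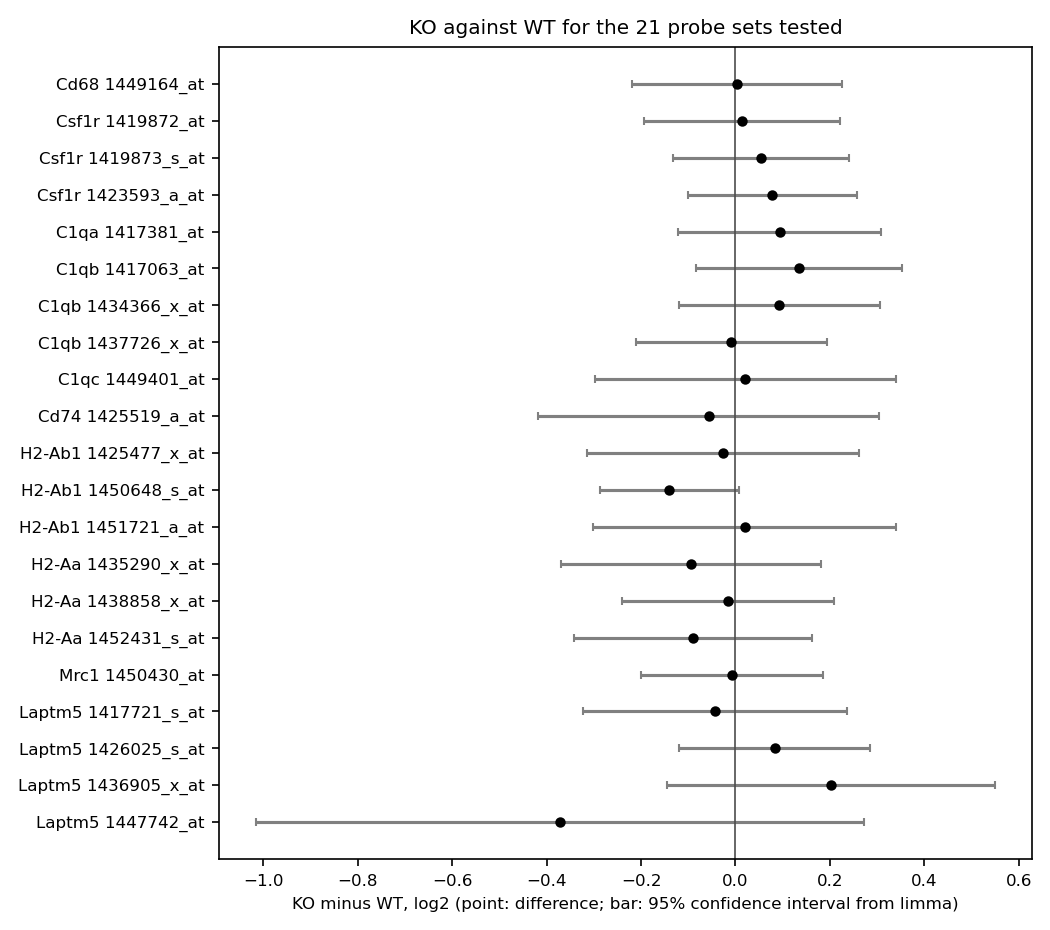
Difference of KO minus WT on the log2 scale for each of the 21 tested probe sets (points), with the 95% confidence interval from limma (bars). Every interval spans 0, H2-Ab1 1450648_s_at comes nearest to excluding it, and Laptm5 1447742_at has the widest interval.

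Csf1r, the receptor that sustains macrophages, passed the test at none of its 3 probe sets. Probe set 1419872_at read 8.88, 8.996 and 9.01 in WT replicates 1 to 3 and 9.08, 8.80 and 9.05 in KO replicates 1 to 3. The lowest value of this probe set and the highest both came from KO testes. The difference was 0.01 ± 0.09 log2 (SE, limma adjusted p = 0.999). At 1419873_s_at the WT values were 7.97, 7.97 and 7.99 and the KO values 8.09, 7.87 and 8.12, a difference of 0.05 ± 0.08. At 1423593_a_at the WT values were 7.78, 7.59 and 7.74 and the KO values 7.76, 7.73 and 7.85, a difference of 0.08 ± 0.08. KO replicate 2 was lowest at 2 of the 3 probe sets and WT replicate 2 at the other.

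Neither ligand of the receptor was called. The brightest probe set of Csf1, 1425154_a_at, stood at 8.08 ± 0.08 in WT and 8.12 ± 0.07 in KO (SD, n = 3 each), a difference of 0.04 ± 0.07 (SE, limma adjusted p = 0.994). Il34 lay under the level filter at 5.05 ± 0.12 in WT and 4.90 ± 0.13 in KO and was not tested. Spi1, which encodes PU.1, differed by 0.11 ± 0.08 (adjusted p = 0.993). Irf8, a partner of PU.1 in the myeloid lineage, differed by 0.33 ± 0.20 (adjusted p = 0.993), with 7.17, 6.88 and 7.71 in WT and 7.73, 7.41 and 7.61 in KO. Its low values were those of WT replicates 1 and 2, and without them the difference was −0.12. A second tested probe set of Irf8 differed by 0.24 ± 0.15 with all arrays. Of the 5 tested genes of the CSF1 pathway list limma called 0 (0.0432% of all genes). All 5 were higher in KO, where 55.9% of all genes were higher. Their median difference was 0.037, and −0.0020 without KO replicate 1.

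Cd68 and Mrc1 had the same group means to within 0.01 log2. Cd68, a general marker of the macrophage lineage, read 6.53, 6.34 and 6.62 in WT and 6.38, 6.57 and 6.54 in KO, a difference of 0.00 ± 0.10 (0.0035 log2). The range of the KO values lay inside that of the WT values. Mrc1, a scavenging receptor of tissue-resident macrophages, read 9.36, 9.60 and 9.45 in WT and 9.40, 9.42 and 9.57 in KO, a difference of −0.01 ± 0.08. The confidence interval of Mrc1 ran from −0.20 to 0.18.

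Laptm5, which acts in lysosomal sorting of immune receptors, gave different pictures at different probe sets. Probe set 1447742_at read 8.30, 7.19 and 7.15 in WT and 7.13, 7.15 and 7.25 in KO. WT replicate 1 stood more than a full log2 unit above the other 5 arrays, and it alone set the difference of −0.37 ± 0.28. Without this array the difference was 0.0039. At 1436905_x_at the WT values were 6.48, 6.74 and 6.63 and the KO values 7.02, 6.47 and 6.96, a difference of 0.20 ± 0.15. Here KO replicates 1 and 3 were high and KO replicate 2 was the lowest of all arrays. Without KO replicate 2 the difference was 0.37 (limma unadjusted p = 0.0087, not called after adjustment). The remaining tested probe sets, 1417721_s_at and 1426025_s_at, differed by −0.04 ± 0.12 and 0.08 ± 0.09, with groups that overlapped. In Affymetrix names, the ending x_at marks probe sets with probes that may bind other transcripts, and s_at those that match several transcripts.

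**Figure D2:**
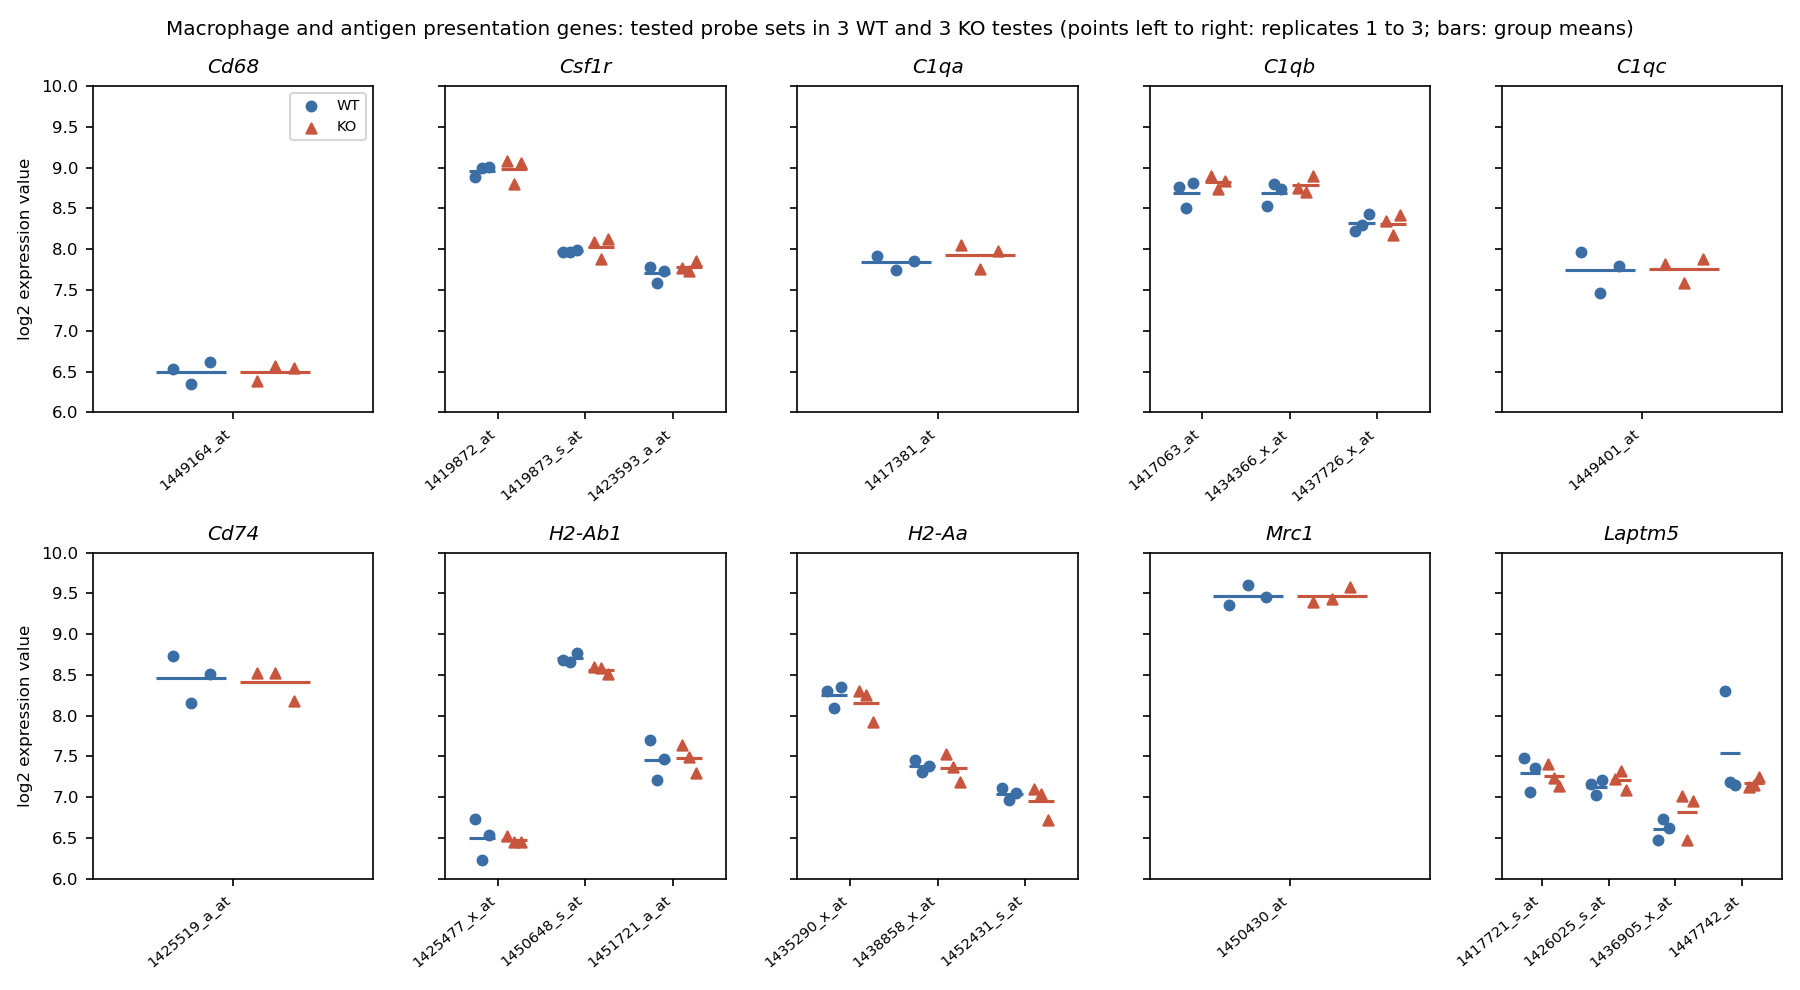
Log2 expression values (vertical axis) of the 21 tested probe sets, 1 panel per gene, in 3 WT testes (circles) and 3 KO testes (triangles), with replicates 1 to 3 from left to right and horizontal bars at the group means. The groups overlap at every probe set other than H2-Ab1 1450648_s_at, and 1 WT array lies far above the rest at Laptm5 1447742_at.

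The 3 C1q genes lie next to each other on chromosome 4, in the order C1qb, C1qc, C1qa, with no other protein-coding gene between them in the RefSeq table. C1qa read 7.92, 7.75 and 7.85 in WT and 8.05, 7.76 and 7.98 in KO, a difference of 0.09 ± 0.09 log2. C1qc read 7.97, 7.46 and 7.79 in WT and 7.82, 7.59 and 7.88 in KO, a difference of 0.02 ± 0.14. For both genes the replicates numbered 2 were the lowest of their group, and the spread within a group was larger than the difference between groups. Labels do not state that equal numbers mark a shared litter or day.

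C1qb was measured by 3 probe sets that ordered the arrays differently. Probe set 1417063_at read 8.77, 8.50 and 8.81 in WT and 8.90, 8.74 and 8.84 in KO, which put WT replicate 2 lowest as for C1qa and C1qc. Its difference was 0.13 ± 0.09, with an interval from −0.08 to 0.35 (limma adjusted p = 0.993), and 0.039 without WT replicate 2. At 1434366_x_at WT replicate 2 was instead the second highest array, with 8.52, 8.80 and 8.74 in WT and 8.74, 8.70 and 8.89 in KO. The difference there was 0.09 ± 0.09, 0.1497 without WT replicate 2 and 0.011 without WT replicate 1. The third, 1437726_x_at, read 8.23, 8.30 and 8.43 in WT and 8.34, 8.17 and 8.41 in KO, a difference of −0.01 ± 0.09.

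Other genes of the complement list were mostly on the higher side without passing. The list spans components, receptors, inhibitors and the C1q-binding protein gene C1qbp. Of the 12 tested genes of the complement list 11 were higher in KO and 1 lower, with a median difference of 0.079 log2, where 55.9% of all 13897 genes were higher and the median was 0.012. Limma called 0 of the 12 (0.0432% of all genes), and 1 had an unadjusted p under 0.05, as had 5.51% of all genes. That gene was Cfb, which encodes factor B of the alternative pathway. It read 6.04, 6.05 and 6.27 in WT and 6.32, 6.30 and 6.35 in KO, a difference of 0.20 ± 0.09 (limma adjusted p = 0.969), which was 0.052 without WT replicates 1 and 2. Cd55, a membrane inhibitor of complement, differed by 0.14 ± 0.09 (adjusted p = 0.993). The median of the list was 0.022 without WT replicates 1 and 2, and also 0.022 without KO replicate 1.

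Class II genes held the only member probe set without overlap. H2-Ab1 and H2-Aa are neighbours on chromosome 17, between H2-Ob and H2-Eb1, while Cd74 lies on chromosome 18. H2-Ab1 1450648_s_at read 8.68, 8.66 and 8.77 in WT and 8.60, 8.58 and 8.51 in KO. All 3 KO values were below all 3 WT values, which held for 3.84% of all probe sets. The difference was −0.14 ± 0.06 and did not pass (limma adjusted p = 0.984, unadjusted p = 0.0601, 95% interval from −0.29 to 0.01). Without WT replicates 1 and 2 the difference was −0.21.

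The other 2 probe sets of H2-Ab1 did not share that difference. Probe set 1451721_a_at read 7.70, 7.21 and 7.47 in WT and 7.64, 7.49 and 7.30 in KO, a difference of 0.02 ± 0.14. At 1425477_x_at the values were 6.74, 6.24 and 6.54 in WT and 6.53, 6.46 and 6.45 in KO, a difference of −0.03 ± 0.12. In both, WT replicate 1 was highest and WT replicate 2 lowest, so that the KO values lay between the extremes of the WT group.

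H2-Aa and Cd74 varied between arrays of a group more than between genotypes. H2-Aa 1435290_x_at read 8.31, 8.09 and 8.35 in WT and 8.30, 8.25 and 7.92 in KO, a difference of −0.09 ± 0.12. KO replicate 3 was the lowest array at this probe set and also at 1438858_x_at and 1452431_s_at, whose differences were −0.02 ± 0.10 and −0.09 ± 0.11. Without KO replicate 3 the 3 differences were 0.03, 0.07 and 0.03. Cd74 read 8.73, 8.16 and 8.51 in WT and 8.53, 8.52 and 8.18 in KO, a difference of −0.06 ± 0.16, and its lowest values were those of WT replicate 2 and KO replicate 3.

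The wider class II pathway showed no called gene. Of its 14 tested genes outside the members 9 were higher and 5 lower, with a median difference of 0.019, and limma called 0 with 0 at an unadjusted p under 0.05. Over all genes 55.9% were higher, limma called 0.0432%, and 5.51% had an unadjusted p under 0.05. H2-Eb1, the beta chain of the second class II molecule I-E, read 7.65, 7.41 and 7.67 in WT and 7.67, 7.59 and 7.39 in KO, a difference of −0.03 ± 0.10. Its 2 lowest arrays, KO replicate 3 and WT replicate 2, were the same as for Cd74. The 3 probe sets of Ciita, the master coactivator of class II genes, lay under the level filter, with values from 4.08 to 5.74. Rfxap and Nfya, subunits of the factors that bind the X and Y boxes, differed by 0.11 ± 0.08 and 0.10 ± 0.07 (limma adjusted p = 0.993 for each). Another tested probe set of Rfxap differed by 0.15 ± 0.08, and another of Nfya by −0.06 ± 0.13.

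Averaged by role, the members parted within single arrays rather than between genotypes. Each value was expressed as its deviation from the mean of the 6 arrays for that probe set. Over the 7 class II probe sets the mean deviation was 0.16, −0.14 and 0.07 log2 in WT replicates 1, 2 and 3, and 0.09, 0.02 and −0.19 in KO replicates 1, 2 and 3. Over the 5 C1q probe sets it was −0.01, −0.13 and 0.03 in WT and 0.08, −0.10 and 0.11 in KO. KO replicate 3 thus had the lowest class II mean and the highest C1q mean, whereas WT replicate 2 was low for both. The 3 Csf1r probe sets, at −0.03, −0.05 and 0.01 in WT and 0.08, −0.11 and 0.10 in KO, had the same 3 highest arrays as C1q. With 1 array per mouse, variation between mice and between arrays cannot be told apart.

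WT replicate 2 was the lowest array for 10 of the 21 member probe sets, against 22.3% of all tested probe sets. WT replicate 1 was the highest for 7 of the 21, against 18.5% of all, and the lowest for 2, against 32.7% of all. The mean deviation of WT replicate 1 was 0.086 log2 over the members and −0.036 over all tested probe sets. For WT replicate 2 it was −0.110 and 0.0054. Several probe sets read the same gene, so these counts are not independent. WT replicates 1 and 2 are the arrays that stood apart in the control RNAs, and the part of the array in these values was not tested.

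**Figure D3:**
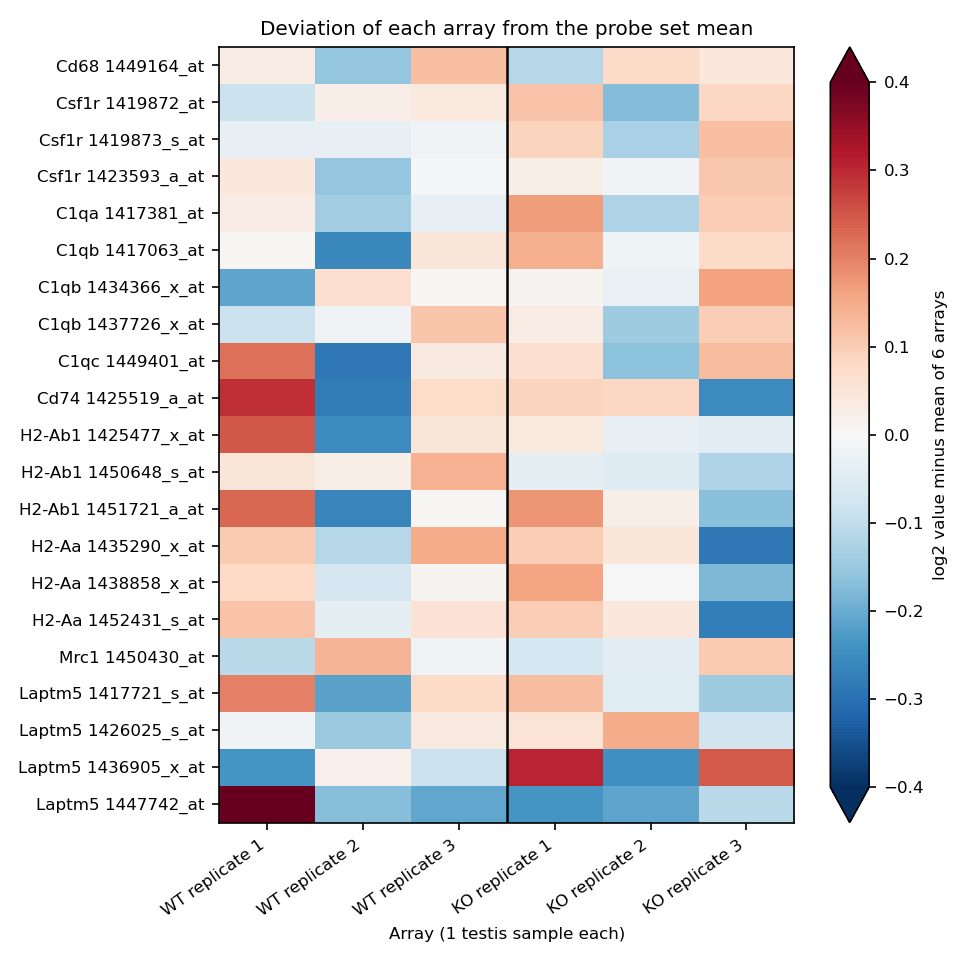
Deviation of each array from the mean of the 6 arrays, in log2 units, for the 21 tested probe sets (rows) and the 6 arrays (columns, WT left of the line and KO right). Class II rows are lowest in WT replicate 2 or KO replicate 3, and no row group splits cleanly at the line.

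Further macrophage genes gave the same counts in both directions. Of 32 listed genes on the array 24 were tested, with 12 higher and 12 lower in KO and a median difference of 0.0022. Over all genes 55.9% were higher. Aif1 was by far the brightest of the list, at 12.51 in WT and 12.56 in KO, and which cells gave its signal was not tested. Limma called 0 of the 24, and 0 had an unadjusted p under 0.05, against 0.0432% and 5.51% of all genes. Under the level filter lay Fcgr1, Itgam, Cd163, Lyve1, Timd4, Vsig4, Marco and Ptprc, the last being the leukocyte common antigen CD45. The smallest p belonged to Ms4a7 (0.14 ± 0.07) and the scavenger receptor Msr1 (−0.13 ± 0.07), both at a limma adjusted p of 0.993. The other tested probe sets of Msr1 differed by −0.12 ± 0.06 and −0.05 ± 0.06. Adgre1, the classic surface marker of mouse macrophages, read 7.57, 7.42 and 7.46 in WT and 7.65, 7.40 and 7.61 in KO, a difference of 0.07 ± 0.09.

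The widest difference in that list came from a single array. Fcgr3, an Fc receptor for immunoglobulin G, was singled out after its values were seen. It read 8.95, 9.01 and 8.92 in WT and 10.91, 9.02 and 9.09 in KO, so that KO replicate 1 stood far above the other 5 arrays. The difference was 0.71 ± 0.45 (limma adjusted p = 0.993) and became 0.10 without that array.

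Genes of class I presentation were likewise not called. Of 14 tested genes 10 were higher and 4 lower (median 0.033, limma 0 called, 0 at an unadjusted p under 0.05). Over all genes 55.9% were higher, limma called 0.0432%, and 5.51% had an unadjusted p under 0.05. Psmb10, an immunoproteasome subunit, differed by −0.18 ± 0.09 and Tapbp, which loads peptides onto class I, by −0.11 ± 0.06 (limma adjusted p = 0.993 for each). A second tested probe set of Tapbp differed the other way, by 0.05 ± 0.12. Of 10 interferon and cytokine genes 7 were higher and 3 lower (median 0.022, 0 called, 0 at an unadjusted p under 0.05), among them Il1b at 0.12 ± 0.06 and Tnf at −0.09 ± 0.08.

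Markers of other leukocytes were few above the filter. Over all genes limma called 0.0432%, and 5.51% had an unadjusted p under 0.05. All 5 tested dendritic cell genes were lower in KO (median −0.097), where 55.9% of all genes were higher, and limma called 0 of them, with 1 at an unadjusted p under 0.05. That was Ccr7, the chemokine receptor that guides dendritic cells to lymph nodes, at 6.93, 6.57 and 6.67 in WT and 6.25, 6.24 and 6.49 in KO (−0.40 ± 0.12, limma adjusted p = 0.863). Flt3, a receptor of dendritic cell precursors, differed by −0.15 ± 0.07 (limma adjusted p = 0.982). Of 4 tested neutrophil and mast cell genes 1 was higher and 3 were lower in KO (median −0.013). Limma called 0 of them, and 1 had an unadjusted p under 0.05. Mpo, the myeloperoxidase of neutrophil granules, read 7.41, 7.11 and 7.52 in WT and 6.76, 6.69 and 6.88 in KO, a difference of −0.57 ± 0.11 (limma adjusted p = 0.510). The others of this list lay near 0, with Elane at −0.01 ± 0.09, Tpsb2 at −0.02 ± 0.07 and Mcpt4 at 0.03 ± 0.07. The neutrophil genes S100a8, S100a9, Ngp and Camp lay under the filter. Among 4 tested lymphocyte genes 0 were called (0 at an unadjusted p under 0.05), with Cd3e at 0.11 ± 0.09 and Cd3d at −0.23 ± 0.17. Cd3d read 6.21, 5.99 and 6.71 in WT and 5.99, 6.15 and 6.08 in KO, so that WT replicate 3 carried most of its difference, which was −0.026 without that array.

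**Figure D4:**
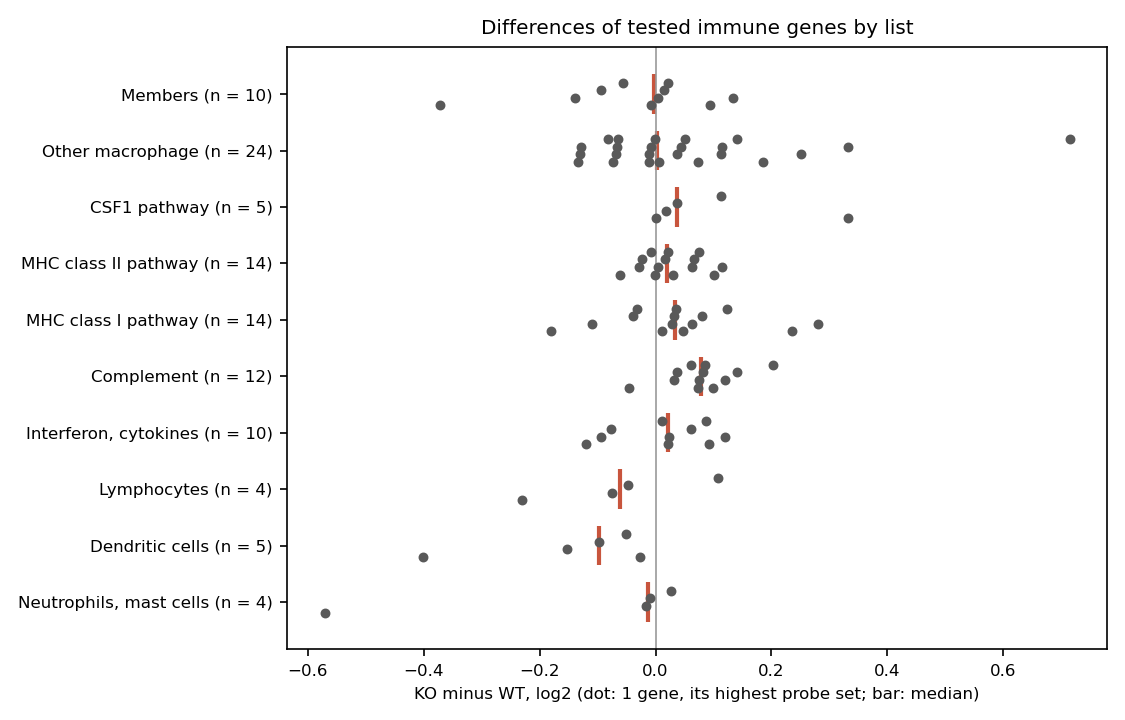
Difference of KO minus WT (log2) for each tested gene of 10 immune lists, read at its brightest probe set (dots), with the median of the list (bars) and the number of tested genes in the label. Most dots lie near 0, and the dots farthest out are Fcgr3 among the other macrophage genes and Mpo among the neutrophil and mast cell genes.

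Somatic neighbours of the macrophages were not called either. Limma called 0 of the 6 endothelial, 5 Leydig, 10 Sertoli and 6 peritubular genes, with 1 of these, the Sertoli gene Inha (−0.12 ± 0.05), at an unadjusted p under 0.05. Over all genes these shares were 0.0432% and 5.51%. The erythroid gene Alas2 was the only tested marker of its list and differed by −0.07 ± 0.07. Fabp4, which fat cells and macrophages both express, varied most between arrays, at 6.11, 5.77 and 8.38 in WT and 6.84, 9.80 and 7.09 in KO. The adipocyte gene Adipoq was likewise highest in KO replicate 2 (8.69) and WT replicate 3 (8.52). Of these, KO replicate 2 had the lowest mean of the Csf1r probe sets, and WT replicate 3 the highest of the WT arrays for Csf1r and for C1q.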

How the data were processed

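The authors deposited 1 table of log2 expression values, 45101 probe sets by 6 arrays, each array from 1 mouse. Their range shows the log2 scale (2.61 to 15.00, array medians 6.62 to 6.65). Total RNA (integrity numbers 9.8 to 10, per the labels) was labelled with biotin in 1 cycle. Per the submitters' processing notes GCOS 1.4 was used; the background correction and normalization are not given there. If arrays were equalised, a global change would be hidden, and log2 values near background understate fold changes. Detection calls were not used, and the number of arrays limits precision (median SE 0.08 log2).

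Without the 64 control probe sets, the upper 60% by mean over all arrays were kept (27022, lowest mean 6.02). Names came from the platform annotation (34945 probe sets with 1 gene, 932 with several, 9160 with none), updated by gene ID through a RefSeq table of GRCm38.p6 (99.4% matched), which also gave gene order. KO was compared with WT by limma 3.58.1 (R 4.3.3; lmFit, eBayes with an intensity trend, two-sided, Benjamini-Hochberg over all kept probe sets, threshold 0.05). In lists, a gene stood for its probe set with the highest mean, over 13897 genes. Lists gave counts and medians, with no set test. Named were all member probe sets and, from each list, called genes or the 2 with the smallest p, plus Csf1, Il34, Ptprc, Adgre1, Ciita, H2-Eb1 and Alkbh1. Some of those from lists of other tissues are left out of the text. The lists of macrophage and CSF1 genes share Spi1 and Irf8, and those of macrophage and class II genes share Ctss and Lgmn. The members and lists were chosen with earlier results of these data known. Alternatives covered normalization, centring, the level filter, the intensity trend, a replicate block, the probe sets of list genes and left-out arrays.

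On simulated data for KO against WT with 27022 probe sets and 200 changed ones (10 runs), limma recovered 54.3%, 86.9% and 98.5% of changes of 0.5, 1 and 2 log2, with 4.17% false calls. The simulation used independent normal noise and no outlying arrays. It changed more probe sets than the 11 called in the real arrays, which eases the adjusted threshold. These shares are therefore not the power for the members, which were more spread than most probe sets. Deviations from the group means correlated at 0.22, −0.02 and 0.10 between equal replicate numbers. These were the highest values for WT replicates 1 and 3, whereas WT replicate 2 correlated best with KO replicate 3 (0.25). Deviations within such small groups sum to 0, so these correlations cannot decide whether equal numbers pair the samples. Figures were drawn with matplotlib 3.10.9.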

Additional observations from a re-analysis of the deposited data

How the results depend on the processing

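Limma called 0 member probe sets under all 13 alternatives, and 0 genes of every other list under each of them and with all probe sets of a gene. The count over the whole table, 11, was 7 with the upper 40% by level, 2 without WT replicates 1 and 2, and from 2 (without KO replicate 3) to 12 with single arrays left out. The median member difference stayed between −0.054 and 0.046. With the replicate block it was 0.0035 with 0 called members and 9 calls over the whole table. Equal numbers did not correlate best for WT replicate 2, and the block changed no call of a member. Alkbh1 missed the threshold without WT replicates 1 and 2 (−3.30, limma adjusted p = 0.0631). Small differences changed sign, as did the larger ones of Fabp4, Irf8 and Laptm5 1447742_at, and the cause was not tested. Cd68 went to −0.0079 with median centring and −0.0073 with quantile normalization. Without WT replicates 1 and 2, where the lone WT array is assumed to vary like the KO arrays, the difference was −0.118 for Cd68, −0.027 for C1qc, −0.031 for Csf1r 1419872_at, 0.012 for Mrc1, 0.024 for Laptm5 1447742_at, −0.123 for Irf8 and −0.47 for Fabp4 (1.16 with all arrays). With single arrays left out, the differences ran from −0.060 to 0.061 for C1qb 1437726_x_at, −0.118 to 0.136 for C1qc, −0.073 to 0.064 for Cd68 and −0.211 to 0.075 for Cd74. They ran from −0.0020 to 0.081 for Csf1, −0.039 to 0.105 for Csf1r 1419872_at and −0.063 to 0.058 for Mrc1. For H2-Aa they were −0.173 to 0.026 at 1435290_x_at, −0.098 to 0.070 at 1438858_x_at and −0.161 to 0.026 at 1452431_s_at. For H2-Ab1 they were −0.161 to 0.090 at 1425477_x_at and −0.107 to 0.140 at 1451721_a_at, and for H2-Eb1 −0.112 to 0.051. For Laptm5 they were −0.161 to 0.046 at 1417721_s_at and −0.569 to 0.0039 at 1447742_at. The other 8 tested member probe sets kept their direction throughout, among them H2-Ab1 1450648_s_at (−0.21 to −0.11), while C1qb 1417063_at ran from 0.039 to 0.192 and C1qb 1434366_x_at from 0.011 to 0.1497 with single arrays left out. With Fcgr3, the range was 0.10 to 1.04. The background of the probes is unknown, so that values of Cd68, H2-Ab1 1425477_x_at and Laptm5 1436905_x_at, near the level filter, may be compressed.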
